A study of Homo sapiens with 3 samples.

Results

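Heterogeneous nuclear ribonucleoproteins (hnRNPs) are abundant nuclear proteins that coat new transcripts, and their own messages are examined here as RNA bound by MATR3 (matrin 3). The 10 genes considered were HNRNPC, HNRNPA1, HNRNPA2B1, HNRNPA3, HNRNPD, HNRNPM, HNRNPH1, HNRNPK, HNRNPU and HNRNPR, and a cluster belonged to them when the deposited tables gave it that gene name from the HAVANA or ENSEMBL annotation. They held 118 of the 115227 clusters in 3 PAR-CLIP libraries. Wild-type (WT) HAP1 cells gave 2 libraries, replicate 1 (R1) and replicate 2 (R2), and a HAP1 MATR3 knockout (KO) line gave 1, the study's negative control. The design calls the WT replicates independent, but nothing says that they came from separate cultures, so their spread may be technical. HAP1 is a near-haploid human line derived from the KBM-7 chronic myeloid leukaemia line, the KO cells are named by 1 catalogue entry, and the labels record no drug or other perturbation for either genotype. Cells were UV-crosslinked, RNA was cut with RNase T1, which cleaves after G, and complexes were taken on anti-FLAG beads; the labels mention no tagged MATR3.

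PAR-CLIP is a crosslinking and immunoprecipitation method that finds RNA contacts of a protein through T-to-C changes in reads, left where a photoreactive uridine was crosslinked. A cluster is a group of overlapping reads with such changes. MATR3 is a nuclear matrix protein with RNA recognition motifs and zinc fingers, known to bind pyrimidine-rich stretches in introns and to work with the splicing regulator PTBP1. Many hnRNP genes are known to control their own level through alternative splicing of their own transcripts.

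R1 listed 87230 clusters with 2668797 reads, R2 listed 27155 with 1558995 and KO listed 842 with 224142. The tables hold reads in called clusters only, so the sequencing depth is unknown. MATR3 itself, the targeted gene, had 53 clusters in R1, 26 in R2 and 0 in KO, which does not measure the protein. Transcript abundance was not measured either, so a count of clusters cannot be scaled to the amount of each RNA. WT and KO were not tested against each other, because the smallest exact permutation p with 3 libraries is 0.333. Intervals below are 95% Wilson intervals and cover counting error only, since clusters of one gene and library are not independent.

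The 3 sites in hnRNP transcripts that both WT libraries contained are shown first, as the only ones with a replicate. All lay in introns. Sequences are 5′ to 3′ on the transcript strand, and capitals mark 4 pyrimidine words, which may overlap each other. The first word searched is ATCTT, another is TTCTT, the third is TTTCT and the last is TCTCT.
HNRNPC, WT replicate 1: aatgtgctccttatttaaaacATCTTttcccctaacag
HNRNPC, WT replicate 2: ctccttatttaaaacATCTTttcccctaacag
HNRNPD, both WT libraries: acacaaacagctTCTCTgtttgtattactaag
HNRNPM, WT replicate 1: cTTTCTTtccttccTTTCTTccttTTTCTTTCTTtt
HNRNPM, WT replicate 2: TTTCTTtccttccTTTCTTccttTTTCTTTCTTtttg

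In HNRNPC the site lay on the minus strand at chr14:21264354-21264391 in R1 (hg38, as for all positions given) with 127 reads, and at chr14:21264354-21264385 in R2 with 36 reads. The calls shared their downstream end. In HNRNPD both libraries gave the same interval, chr4:82373018-82373049 on the minus strand, with 63 and 28 reads. In HNRNPM, on the plus strand, the intervals were chr19:8470311-8470346 with 42 reads and chr19:8470312-8470348 with 53 reads. The R1 calls of HNRNPC, HNRNPD and HNRNPM held 13, 6 and 8 distinct reads. Each R2 call held only 2 distinct reads and 2 converted positions. The HNRNPM sequences were 100% pyrimidine in R1 and 97.3% in R2, while the HNRNPD sequence was 56.25% pyrimidine. A pyrimidine repeat of this kind can have like copies elsewhere, and how reads with several matches were placed is not given in the sources used here.

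The deepest WT clusters of members without a shared site are shown next, with the deepest of HNRNPC and the only intronic one of HNRNPA1 added after their values were seen. The deepest WT clusters of HNRNPA1 and HNRNPA3 lay in 3' UTRs and are not shown. All those printed come from introns in R1.
HNRNPC, 220 reads: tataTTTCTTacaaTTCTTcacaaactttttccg
HNRNPA2B1, 156 reads: ttttccttataactcttttatTTTCTTag
HNRNPA1, 27 reads: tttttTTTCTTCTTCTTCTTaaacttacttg
HNRNPU, 121 reads: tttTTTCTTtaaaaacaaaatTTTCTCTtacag
HNRNPK, 116 reads: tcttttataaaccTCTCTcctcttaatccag
HNRNPH1, 55 reads: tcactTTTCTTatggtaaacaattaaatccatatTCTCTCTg

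Those sites lay at chr14:21265177-21265210 (HNRNPC), chr7:26200080-26200108 (HNRNPA2B1), chr12:54281951-54281981 (HNRNPA1), chr1:244854504-244854536 (HNRNPU), chr9:83976031-83976061 (HNRNPK) and chr5:179619200-179619241 (HNRNPH1). Each of those printed held at least 1 of the words. The unprinted deepest clusters of HNRNPA1 (41 reads) and HNRNPA3 (111 reads) held none of them. Over all hnRNP clusters of R1 a word stood in 49.5%, and in 61.0% of the other named clusters. HNRNPA2B1, HNRNPU and HNRNPK sequences ended in AG, the letters of a 3' splice site, which also offer RNase T1 a G to cut after. Among all hnRNP clusters 27.7% ended in AG in R1 (19.9 to 37.15%) and 50% in R2 (26.8 to 73.2%), and the other clusters with a gene name gave 23.5% and 35.8%. The other clusters' shares lay inside the hnRNP intervals in both libraries.

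The 3 KO clusters in hnRNP genes are shown for contrast with the WT sites.
HNRNPA3, KO: taatgtcacaaattagtgaataagcatg
HNRNPK, KO: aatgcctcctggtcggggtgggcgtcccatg
HNRNPM, KO: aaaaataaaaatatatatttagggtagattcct

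The words stood in 0 of these 3 sequences (0 to 56.15%) and in 28.5% of the other KO clusters with a gene name (25.2 to 32.0%), so no difference was detectable. They lay in the 3' UTR of HNRNPA3 (chr2:177223641-177223668, 514 reads), in coding sequence of HNRNPK (chr9:83972016-83972046, 296 reads) and in an intron of HNRNPM (chr19:8448836-8448868, 149 reads). No WT cluster overlapped them. The HNRNPA3 one ended 28 nt before the only HNRNPA3 cluster of R1, which had 111 reads. In HNRNPK the nearest WT cluster was 1881 nt away, in R2, and in HNRNPM it was 2459 nt away, in R1. T-to-C changes were carried by 97.5%, 95.6% and 96.6% of their reads.

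Clusters were found in 9 of the 10 genes in R1, in 6 in R2 and in 3 in KO. The same 6 genes, HNRNPC, HNRNPM, HNRNPA2B1, HNRNPD, HNRNPH1 and HNRNPK, had clusters in both WT libraries. Among 20046 other RefSeq protein-coding genes the shares with a cluster were 41.3% in R1, 28.1% in R2, 26.1% in both and 2.85% in KO. Among the 10701 whose span lay within the members' range of 6.36 to 60.3 kb they were 40.6%, 24.1%, 21.9% and 1.66%. Genes that the cells do not transcribe are part of that background, and how many there are was not measured.

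**Figure D1:**
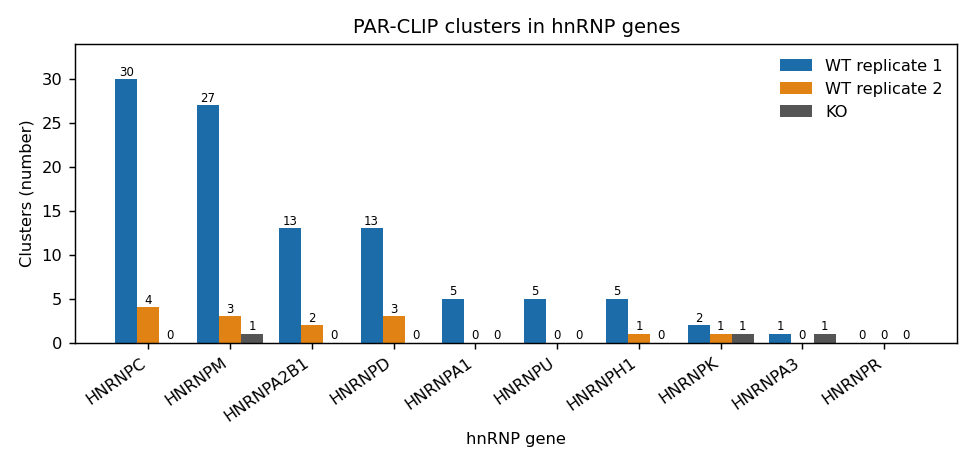
Number of clusters in each hnRNP gene (vertical axis, count) in WT replicate 1, WT replicate 2 and KO, 1 bar per library. HNRNPC and HNRNPM stood highest in WT replicate 1 with 30 and 27, no gene exceeded 4 in WT replicate 2, and KO had 1 cluster in each of 3 genes.

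The hnRNP genes together had 101 clusters with 3396 reads in R1, 14 with 599 reads in R2 and 3 with 959 reads in KO. The mean of R1 and R2 was 57.5 ± 61.5 clusters (SD, n = 2). The gap was wider than that between the libraries as a whole: the ratio of R1 to R2 was 7.21 for hnRNP clusters and 3.21 for all clusters. As a share of clusters, hnRNP genes made up 0.116% in R1 (0.0953 to 0.141%) and 0.0516% in R2 (0.0307 to 0.0865%), and these intervals did not overlap. At the share of R1, R2 would have held 31.4 such clusters. As a share of cluster reads the values were 0.127% and 0.0384%, a mean of 0.0828 ± 0.0628% (SD, n = 2).

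A ratio per gene could be formed for the 6 members that both WT libraries held, whose R2 counts were only 1 to 4. The share of other genes in both libraries with a ratio above the 3.21 of all clusters was not computed. The values per gene therefore have no background. The R1 count over that of R2 was 9 in HNRNPM, 7.5 in HNRNPC, 6.5 in HNRNPA2B1, 5 in HNRNPH1, 4.33 in HNRNPD and 2 in HNRNPK. The same ratio was 3.56 over other protein-coding genes with spans in the members' range and 3.001 over genes spanning more than 100 kb. With an equal number of clusters per library, taken by reads, R1 kept 36 hnRNP clusters and R2 kept 14. The limits were unequal: the lowest count kept was 30 reads in R1 and 5 reads in R2, where every cluster stayed. The libraries also differed in reads per cluster, with a median of 20 in R1 and 39 in R2 over the other named clusters. The median of distinct reads was 3 in both, with 7.57 reads per distinct read in R1 and 17.9 in R2. Reads are therefore not counts of independent molecules, and the part of this in the gap was not tested.

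KO gave 0.356% of its clusters to hnRNP genes (0.121 to 1.04%), an interval that overlaps that of R1. At the WT shares a library of 842 clusters would hold 0.975 or 0.434 hnRNP clusters, so with 3 observed a difference from R1 was not detectable at this depth. The interval of R2 lay below that of KO, but it lay below that of R1 too, so it does not set KO apart from WT. KO clusters held many reads in other genes too: the median was 246 reads over the other named clusters and 296 over these 3. The medians of distinct reads were 7 and 11.

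HNRNPC encodes the C proteins, which form the core of the hnRNP particle and bind runs of U. It had 30 clusters with 992 reads in R1, 4 with 297 reads in R2 and none in KO. This was the highest count and the highest number of reads among the members in both WT libraries. In R1, 29 of the 30 were intronic and 1 spanned an intron and the 5' UTR; all 4 of R2 were intronic. Reads per cluster ran from 5 to 220 with a median of 20 in R1, and from 9 to 136 with a median of 76 in R2. The span of HNRNPC is 60.3 kb, and 9 of the 30 clusters, holding 528 of the 992 reads, lay within 7 kb of its start. Only 1 of the 4 clusters of R2 fell there, the shared site; the others lay 27.6, 43.4 and 46.4 kb from the start.

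HNRNPA2B1 encodes an A/B-type hnRNP that acts in splicing and RNA transport. Its counts were 13 clusters with 482 reads, 2 with 81 reads and none in R1, R2 and KO. Of the 13, 7 lay within 1 kb of the gene start, in a stretch of 558 nt that held 301 reads. One of the R2 clusters, with 12 reads, fell into the same stretch, 57 nt from its nearest R1 neighbour. The other, with 69 reads, lay in the 3' UTR, where R1 also had 2 clusters, and 22 nt separated it from the nearer one. In both places the libraries' calls lay close together without sharing a base.

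HNRNPA1, the best-known A/B protein and a splicing repressor, had 5 clusters with 107 reads in R1 and none in the other libraries. The annotation placed 4 of them in the 3' UTR and 1 in an intron, and each held between 9 and 41 reads. HNRNPA3, a relative of HNRNPA1 and HNRNPA2B1, had 1 cluster of 111 reads in the 3' UTR in R1 and none in R2. Its KO cluster had 514 reads. Besides HNRNPA3, only HNRNPK among the members had more reads in KO (296) than in either WT library (160 and 14). Exonic clusters of these genes are uncertain, since the placement of reads that match several copies is not known and RefSeq lists 75 pseudogenes named for HNRNPA1, 17 for HNRNPA3 and 5 for HNRNPK.

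HNRNPD (AUF1) is known for binding AU-rich elements and for roles in mRNA decay. It had 13 clusters with 463 reads in R1, 3 with 86 reads in R2 and none in KO. Of the 13, 12 were intronic and 1 was in the 3' UTR. They were gathered near the start: 11 lay in the first 7 kb of a span of 21.5 kb. All 3 clusters of R2, with 5, 53 and 28 reads, lay there as well. Besides the shared site, 1 of them lay 13 nt from an R1 cluster and 1 lay 247 nt away.

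HNRNPM, a splicing regulator, had 27 clusters with 752 reads, 3 with 98 reads and 1 with 149 reads in R1, R2 and KO. In R1, 26 were intronic and 1 was in the 3' UTR. They spread along the gene, from 6.37 to 43.9 kb of a span of 44.1 kb. The shared site lay within 165 nt that held 3 R1 clusters with 93 reads. The remaining R2 clusters lay 21 and 260 nt from an R1 cluster.

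HNRNPH1, which binds G runs near exons, had 5 intronic clusters with 123 reads in R1. R2 gave 1 cluster of 23 reads across a coding exon and an intron, 1009 nt from the nearest of them. HNRNPK, a KH-domain protein that binds C-rich RNA, had 2 intronic clusters of 44 and 116 reads in R1 and 1 intronic cluster of 14 reads in R2, 5123 nt apart at the closest. HNRNPU, or scaffold attachment factor A, had 5 clusters with 206 reads in R1, 3 intronic and 2 in the 3' UTR, and none in the other libraries. HNRNPR, a relative of SYNCRIP, was given no cluster in any of the 3 tables although its span of 39.6 kb is the third longest of the members.

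**Figure D2:**
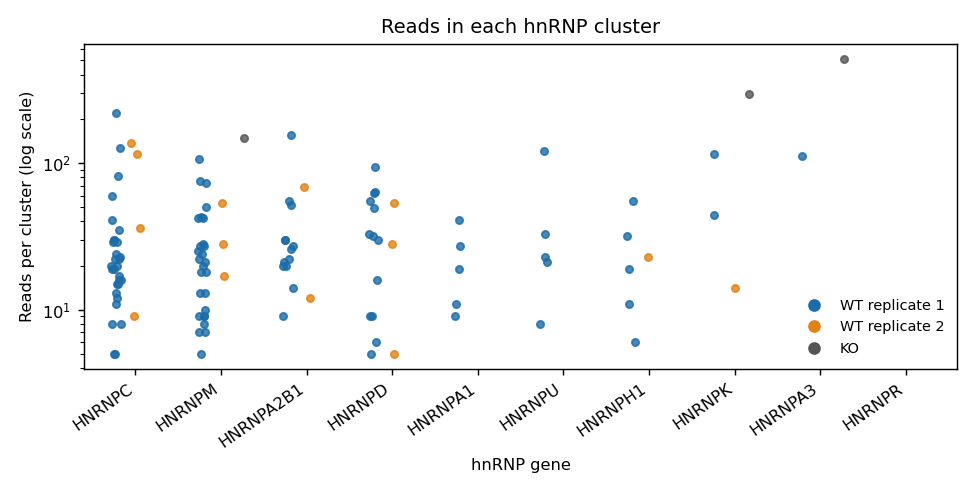
Reads in each hnRNP cluster (vertical axis, log scale) by gene, 1 point per cluster and coloured by library, with sideways jitter only for legibility. WT points lie between 5 and 220 reads, and the 3 KO points lie at 149, 296 and 514.

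Levels were compared between genes per kb of RefSeq span. HNRNPA2B1 came first with 1.20 clusters per kb in R1 and 0.185 in R2, a mean of 0.693 ± 0.719 (SD, n = 2). HNRNPA1 followed with a mean of 0.393 ± 0.556, HNRNPD with 0.372 ± 0.329, HNRNPM with 0.340 ± 0.385 and HNRNPC with 0.282 ± 0.305. Means were 0.176 ± 0.248 for HNRNPU, 0.146 ± 0.137 for HNRNPH1, 0.120 ± 0.0564 for HNRNPK and 0.0448 ± 0.0633 for HNRNPA3. The ranges of neighbours in this order overlapped throughout, from HNRNPA2B1 down to HNRNPR at 0. HNRNPC, first by count, stood behind 4 others by density, and HNRNPA1 took its place from R1 alone.

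**Figure D3:**
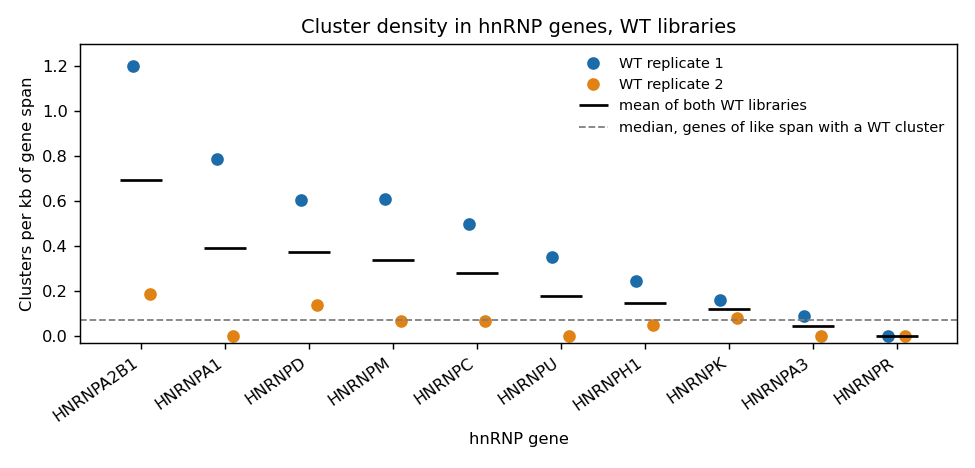
Clusters per kb of gene span (vertical axis) in the WT libraries, a point for each library and a short line for their mean; the dashed line is the median mean density, 0.0708 per kb, of 4582 genes with spans in the members' range and a cluster in either WT library. Means of 8 of the 10 members lie above the dashed line, and WT replicate 1 lies above WT replicate 2 in every gene with a cluster.

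The median density of the 10 members was 0.424 clusters per kb in R1 and 0.0574 in R2, with a median of 0.229 for the means. Of the 10701 other genes with like spans most had no cluster, so the median over all of them was 0. Among the 4582 with a WT cluster it was 0.115 in R1 and 0.0245 in R2, and 8 and 6 of the 10 members exceeded these medians. Across the 10 members the densities of the WT libraries were correlated with Pearson's r 0.660 and Spearman's rho 0.488. These describe genes that share libraries and are not independent.

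Introns held 88.1% of hnRNP clusters in R1 (89 of 101, 80.4 to 93.1%) and 85.7% in R2 (12 of 14, 60.1 to 96.0%), a mean of 86.9 ± 1.70% (SD, n = 2). The other clusters with a gene name gave 91.9% and 90.3%, inside both intervals. These others come from genes of any span, here and for the words and bases below. In R1, genes spanning more than 100 kb held 40178 of the 76692 clusters in other protein-coding genes. Shares of class, words and bases within the members' range of spans were not computed. The 3' UTR took 10.9% of hnRNP clusters in R1 (6.19 to 18.5%), above the 3.20% of the others. In R2 it took 1 of 14, or 7.14% (1.27 to 31.5%), an interval that includes the 4.53% of the others. The 11 clusters of R1 in 3' UTRs lay in HNRNPA1 (4), HNRNPA2B1 (2), HNRNPU (2), HNRNPA3 (1), HNRNPD (1) and HNRNPM (1).

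**Figure D4:**
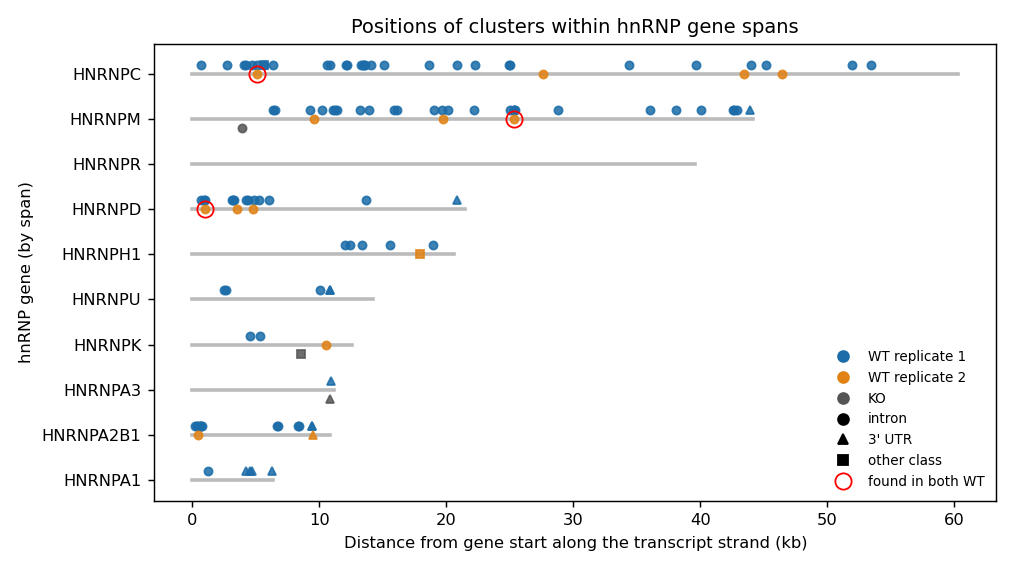
Position of each hnRNP cluster as distance from the gene start along the transcript strand (horizontal axis, kb), 1 row per gene with its span in grey; colour gives the library, marker shape the annotated class, and a red ring the sites in both WT libraries. Clusters gather near the start of HNRNPA2B1 and HNRNPD and spread along HNRNPM, and HNRNPR is empty.

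Along the gene, the first 25% of the span held 43 of 101 clusters in R1 (42.6%, 33.4 to 52.3%) and 6 of 14 in R2 (42.9%, 21.4 to 67.4%). Other genes with like spans had 32.9% and 27.6% of their clusters there, just below the first interval and inside the second. HNRNPC with 19, HNRNPD with 10 and HNRNPA2B1 with 7 supplied 36 of the 43, and HNRNPM supplied 4 of its 27. HNRNPH1 had none of its 5 there and HNRNPK none of its 2.

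Agreement between the WT libraries was next asked of single sites. Of the 14 clusters of R2, 3 shared 1 nt or more with one of R1 on the same strand, which is 21.4% (7.57 to 47.6%). The 24968 other named clusters gave 20.2%, so hnRNP sites stood near the background. Of the 101 clusters of R1, 3 had a partner, or 2.97% (1.02 to 8.37%), beside 6.25% of the others. A further 4 clusters of R2 came within 100 nt of one in R1 without touching it, making 7 of 14, or 50% (26.8 to 73.2%), and 35.4% of the others came that near. Among clusters with at least 50 reads, 1 of 5 in R2 and 2 of 19 in R1 were shared, beside 24.98% and 17.85% of the others. Both deep HNRNPC clusters of R2, with 136 and 116 reads, had their nearest R1 neighbour 482 and 2569 nt away.

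At least 1 of the 4 pyrimidine words stood in 49.5% of hnRNP clusters in R1 (50 of 101, 39.95 to 59.1%), an interval below the 61.0% of the other named clusters. Without HNRNPA2B1 it was 52.3% (42.0 to 62.4%), and that interval includes the others' share. Within introns alone the share was 52.8% (42.5 to 62.85%) against 61.3%, and the interval again includes the other value. In R2 the share was 57.1% (8 of 14, 32.6 to 78.6%) against 62.4%, with no difference detectable. By word, ATCTT stood in 7.92% (4.07 to 14.9%) against 14.7%, TTCTT in 27.7% against 30.4%, TTTCT in 27.7% against 32.2% and TCTCT in 13.9% (8.44 to 21.9%) against 21.9% in R1. The intervals of ATCTT and TCTCT reached just past the others' shares.

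G was more frequent in hnRNP clusters in both WT libraries, at 13.9% and 15.4% of bases. The other named clusters gave 10.1% and 9.91%. The means were 14.7 ± 1.095% and 10.02 ± 0.145% (SD, n = 2), a difference larger than the spread between libraries. That spread does not cover variation between genes or clusters, and the R2 value rests on 14 clusters. T was at 38.8 ± 0.566% against 41.1 ± 1.23%. In R1 the G share was highest in HNRNPA2B1 at 21.5% and HNRNPH1 at 20.4%, and HNRNPC at 10.4% stood near the other genes. It was lowest in HNRNPK at 4.84%, from 2 clusters. Without HNRNPA2B1 the G share was 12.75% in R1 and 16.9% in R2. Strongly pyrimidine-rich clusters, with at least 80% C or T, made up 13.9% in R1 (14 of 101, 8.44 to 21.9%) against 15.2%, with no difference detectable.

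T-to-C conversion in hnRNP clusters was 7.83% of T events in R1 (7.58 to 8.08%), 7.12% in R2 (6.59 to 7.68%) and 12.3% in KO (11.6 to 13.1%). These intervals take every T event as an independent trial and are too narrow. Reads per distinct read in these clusters were 6.81 in R1, 14.6 in R2 and 33.1 in KO. The other named clusters gave 7.94%, 7.53% and 9.73%. The WT mean was 7.47 ± 0.501% (SD, n = 2), which differed from the 7.73 ± 0.289% of the others by less than the spread between libraries. By gene it ran from 5.54% in HNRNPU to 9.44% in HNRNPD in R1. Every deposited cluster had at least 2 converted positions, and the KO value rests on 3 clusters. The median share of reads with a change was 88.9% in R1 and 97.3% in R2, with 94.1% and 97.5% for the others. Fewer than 50% of reads carried a change in 8 of the 101 clusters of R1, or 7.92% (4.07 to 14.9%), and in 0 of the 14 of R2 (0 to 21.5%). The other named clusters gave 4.19% and 3.88%, inside both intervals.

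A list of 17 further hnRNP or hnRNP-like genes was examined beside the members. Of these, 15 had clusters in R1, 10 in R2 and 9 in both. Among the 20046 protein-coding genes outside the members the shares were 41.3%, 28.1% and 26.1%. The 17 genes held 203 clusters in R1 and 48 in R2, a narrower gap in ratio than the members' 101 and 14. RALY, a close relative of HNRNPC, had 52 and 15 clusters in the WT libraries, PCBP2, a C-binding KH protein, had 34 and 14, and HNRNPUL1 had 22 and 2.

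Genes with a pattern most like the members' were sought among 1606 protein-coding genes with at least 5 clusters in each WT library. No member reached that number in R2, where the highest count was 4, so genes with R2 counts as low as the members' were not candidates. Likeness was the Euclidean distance to the median of the 6 members found in both WT libraries, over 4 quantities from these 2 libraries: log2 density in each, intronic share and shared share. The 3 nearest were RNF2 (distance 0.263), GPATCH2L (0.421) and IARS1 (0.446). RNF2 had 31 and 5 clusters, or 0.543 and 0.0877 per kb, beside the members' medians of 0.549 and 0.0736. GPATCH2L had 35 and 6 clusters and IARS1 had 40 and 8. Intronic shares were 97.2% in RNF2, 80.5% in GPATCH2L and 97.9% in IARS1, beside the members' median of 95.2%. Their shared shares of R2 clusters were 20%, 16.7% and 25% in the same order, all above the members' median of 12.5%.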

How the data were processed

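PAR-CLIP cluster tables of 3 HAP1 libraries were used as deposited by the authors, who called clusters in each library separately. Per the submitters' processing notes, cutadapt 1.8.3 and Bowtie 1.1.2 were used with hg38 and GRCh38.p5; the cluster caller and its filters are not given in the sources used here. The deposited counts of reads, distinct reads, converted positions and T events are whole numbers without normalisation, and the deposited fraction is the share of a cluster's reads with a T-to-C change. In the tables every cluster has at least 5 reads and 2 converted positions.

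The members, gene lists and tests were chosen with earlier results of these data known. Clusters were assigned by gene name; spans and names came from RefSeq (GRCh38.p14), which matched 9126 of 9754 names. A gene's strand was that of most of its clusters or, where it had none, that of the RefSeq promoter table. The same-strand rule held for all overlaps. Words were sought on the transcript strand only. Named were all members, MATR3, the 3 listed relatives with most clusters (another gene that the rule names is not reported here), the 3 genes most like the members, and per member the shared site or else the deepest cluster. Sequences of UTRs above 30 nt are not shown. Alternatives were limits on reads or converted positions, equal cluster numbers, assignment by position, other overlap rules, and each WT library left out. Overlap and word counts were tested on simulated data of 27155 features each, where 200 of 200 planted cases were recovered. Simulated intervals lay far apart, and simulated sequences held no T outside the planted words. That check covers the counting code only, not crowded or T-rich clusters. Python 3.11.15, numpy 2.4.6, pandas 2.3.3 and scipy 1.17.1 were used.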

Additional observations from a re-analysis of the deposited data

Results flagged for a closer look

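One cluster without a gene name lay inside the RefSeq span of HNRNPU and on its strand, at chr1:244851131-244851165. It entered no comparison except the alternative assignment by position. It had 119 reads, of which 74.8% carried a T-to-C change, in WT replicate 1, and neither WT replicate 2 nor KO had such a cluster in a member's span. The deepest named HNRNPU cluster had 121 reads, also in WT replicate 1.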

How the results depend on the processing

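Of 39 values recomputed with both WT libraries, 32 moved by less than the spread between libraries (for the shared share its interval, for the count of genes 1.5 times). For the cluster count that spread (61.5) exceeded the value itself (57.5), and for density 0.259 exceeded 0.229. For these results no setting that removes clusters could exceed the spread, so the 32 do not measure stability. With at least 3 converted positions per cluster, 2 members kept clusters in both WT libraries instead of 6, and T-to-C conversion was 6.80%. The intronic share was then 69.0% (SD 26.9%, n = 2) instead of 86.9%. In WT replicate 2 it rests only on the HNRNPA2B1 cluster in the 3' UTR and the intronic HNRNPC cluster of 136 reads. The share of WT replicate 2 clusters with a partner was 0%, but this was fixed in advance. Each shared call of that library had 2 converted positions, so the filter removed all of them. That filter also leaves fewer clusters and selects on conversion itself. Conversion as a median over clusters was 9.29%. Without clusters of joined classes the intronic share was 90.65%, and with 3 nt cut from each end 45.8% of clusters held a word instead of 53.3%. The mean cluster count was 25 with equal numbers of clusters per library and 26 with at least 3 converted positions, instead of 57.5, and the median density was 0.0890 and 0.102 per kb, instead of 0.229, as fewer clusters enter; over the span from first to last WT cluster it was 0.399 per kb. Leaving out WT replicate 1 or WT replicate 2 gave 14 to 101 hnRNP clusters, 6 to 9 genes with a cluster in the library that remained, 0.0384 to 0.127% of cluster reads, 0.0574 to 0.424 clusters per kb, 85.7 to 88.1% in introns, 7.12 to 7.83% conversion and 49.5 to 57.1% with a word. No paired analysis was possible because the WT and KO groups share fewer than 2 replicate numbers and no result comes from a test.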

Other observations

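Gene names that start with HNRNP but belong to neither list had 7 clusters under 4 names in WT replicate 1, 3 clusters under 3 names in WT replicate 2 and none in KO.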
